A study of Homo sapiens with 192 samples.

Results

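The histone cluster genes are the genes whose symbols begin with HIST1H, HIST2H, HIST3H or HIST4H. They were chosen by these symbols alone, and 90 of the 58243 genes in the count tables carry one. Of these, 71 are protein-coding and 19 are pseudogenes, and by product 8 belong to H1, 23 to H2A, 26 to H2B, 17 to H3 and 16 to H4. On GRCh38 with GENCODE 29, 66 of the 68 HIST1 genes lie on chromosome 6 between positions 25726132 and 27893843 and the other 2, both pseudogenes, on chromosome 13. The 17 HIST2 and 4 HIST3 genes lie on chromosome 1 and HIST4H4 lies on chromosome 12.

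They were measured in HT29, LS513, HCT116 and LS174T, established human colorectal cancer (CRC) cell lines, which were cultured in 2D or in 3D with no other treatment named. Each of the 8 groups held 3 libraries of poly(A)-selected RNA, 24 in all, and the labels do not say whether these came from separate cultures, so that p-values measure the spread between the libraries, which may be technical. How the 3D cultures for sequencing were grown is not stated, and each line stands for 1 tumor. Library totals lay between 18723942 and 34277421 counts, so 3 counts in a library correspond to 0.0875 to 0.160 CPM (counts per 1000000 counts of the library), a floor that covers counting error only. CPM below are computed after scaling by the trimmed mean of M-values (TMM). The epithelial markers EPCAM and KRT8 were at 257 CPM or more in every library, while VIL1 was nearly absent from HCT116 (0.223 ± 0.0691 CPM in 2D, SD, n = 3) and CDX2 low in HT29 (1.43 ± 0.404 CPM in 2D). Of the markers of other cells, PTPRC, CD3E, COL1A2 and CDH5 stayed at or below 0.166 CPM, PDGFRB and PECAM1 reached 0.740 and 2.29 CPM, and COL1A1 reached 21.8 CPM in HCT116.

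Histones are the proteins that package DNA. H2A, H2B, H3 and H4 form the core of the nucleosome, and H1 binds the linker DNA between cores. The replication-dependent genes lie in clusters, have no introns and are transcribed when DNA is copied in S phase, and their mRNAs end in a conserved stem-loop in place of a poly(A) tail. Replacement variants such as H2A.Z and H3.3 are encoded by single genes elsewhere, with introns and ordinary polyadenylated mRNAs, and are made throughout the cell cycle. Some cluster genes, among them HIST1H1C, HIST1H2AC, HIST1H2BD, HIST1H2BK, HIST1H2BJ and HIST2H2BE, also give longer polyadenylated transcripts that read past the stem-loop. Oligo(dT) selection keeps polyadenylated RNA, so levels here are those of RNA that passed this selection.

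The stem-loop is shown because it is the feature on which selection by a poly(A) tail turns. An exact match was found in the annotated 3′ UTR of 23 of the 36 protein-coding members for which GENCODE 29 annotates one; the remaining 35 protein-coding members have no annotated 3′ UTR. It holds a stem of 6 bases on each side of a loop of 4, and begins 23 to 68 bases after the stop codon. Capitals mark the loop. The search fixed the letters of the loop, so the 3 forms found can differ in the stem only. Stem-loops with other letters in the loop were not looked for.
H2A (6 members), H2B (8) and H3 (3): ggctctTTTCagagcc
H4 (5 members): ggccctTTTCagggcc
HIST1H2AG: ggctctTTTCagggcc

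How far the annotated transcript runs past the stem-loop differs between members. It ends 39 bases after it in HIST1H2AI and 51 bases after it in HIST1H2AE. In HIST3H2A it runs on for 390 bases, in HIST1H2AC for 1114 and 1128 bases in its 2 transcripts, and in HIST2H2BE for 1729 bases, each of these with a polyadenylation signal at the end. For HIST1H1C and HIST1H2BK no 3′ UTR is annotated at all, so the annotation does not hold the longer forms of every gene.

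Promoters are shown for 4 members whose level rose in 3D in the results below, to set their start regions side by side. They are 300 bases long, from 250 before to 50 after the RefSeq start, on GRCh38.p14, and 66 members, all protein-coding, have one in the RefSeq table. Capitals mark exact matches on either strand to TATAAA (known as a box near many start sites), to CCAAT (bound by NF-Y), to ATTTGCAT (the octamer, known as the binding sequence of OCT factors), to GTCCG (known from H4 promoters), or to TTTGGCGC and TTTCGCGC (E2F type).
HIST1H1C (H1-2, chr6:26056421-26056720, minus strand): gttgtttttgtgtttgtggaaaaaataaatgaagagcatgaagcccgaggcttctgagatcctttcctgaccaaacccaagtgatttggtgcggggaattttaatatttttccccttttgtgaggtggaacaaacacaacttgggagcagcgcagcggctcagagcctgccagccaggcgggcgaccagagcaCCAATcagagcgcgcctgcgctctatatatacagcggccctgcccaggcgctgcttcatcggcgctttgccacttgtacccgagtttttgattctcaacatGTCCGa
HIST1H2BK (H2BC12, chr6:27146806-27147105, minus strand): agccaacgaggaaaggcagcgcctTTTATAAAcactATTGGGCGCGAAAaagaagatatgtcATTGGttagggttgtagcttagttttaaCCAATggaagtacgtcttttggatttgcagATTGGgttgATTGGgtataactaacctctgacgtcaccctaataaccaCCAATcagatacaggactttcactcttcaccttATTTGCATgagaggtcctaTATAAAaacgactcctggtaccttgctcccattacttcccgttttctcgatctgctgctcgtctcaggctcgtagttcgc
HIST2H2BE (H2BC21, chr1:149886633-149886932, minus strand): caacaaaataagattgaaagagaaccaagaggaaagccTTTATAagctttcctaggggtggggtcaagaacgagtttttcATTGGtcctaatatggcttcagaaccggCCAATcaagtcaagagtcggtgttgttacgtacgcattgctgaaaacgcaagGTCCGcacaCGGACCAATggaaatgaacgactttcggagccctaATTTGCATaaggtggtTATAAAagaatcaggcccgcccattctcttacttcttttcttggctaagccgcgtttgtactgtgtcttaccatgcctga
HIST3H2A (H2AC25, chr1:228457824-228458123, minus strand): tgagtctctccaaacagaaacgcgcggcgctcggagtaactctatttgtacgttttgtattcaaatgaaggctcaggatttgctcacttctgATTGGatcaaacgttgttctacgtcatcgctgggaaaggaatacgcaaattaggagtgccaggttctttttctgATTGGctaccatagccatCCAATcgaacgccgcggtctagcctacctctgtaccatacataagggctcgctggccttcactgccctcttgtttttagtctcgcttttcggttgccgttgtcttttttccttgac

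CCAAT was found in 56 of 66 member promoters, against 34.61% of all 35116 promoters of that length, and TATAAA in 44 of 66, against 11.53%. The octamer stood in 14 of 18 H2B and 11 of 16 H2A promoters and in none of the 6 H1, 13 H3 and 13 H4 promoters, against 1.77% of all promoters. GTCCG was found in 12 of 13 H4 promoters, against 28.88% of all, and the E2F-type letters in 12 of 66 member promoters, against 1.15%. The printed promoters are not alike: HIST1H2BK and HIST2H2BE hold the octamer and TATAAA near the start, while HIST1H1C and HIST3H2A hold neither, and all of the printed ones hold CCAAT. In HIST1H2BK a CCAAT on the reverse strand stands directly before the E2F-type match and shares no base with it. A match describes letters in this window, not a bound site.

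A single library stood apart, and it was an HT29 2D library. HT29 2D replicate 3 held 529 CPM of histone cluster RNA in sum, against 36.8 and 35.8 CPM in the other HT29 2D libraries and at most 189.7 CPM in any other library. It was the highest of the 24 libraries for 50 of the 68 members with any count. Its total of 18723942 counts was the lowest of all libraries, and the next lowest was 28520528 in HT29 3D replicate 4. RNAs that carry no poly(A) tail were high in the same library: the summed level of 12 such RNAs was 1255 CPM there, all 12 were at their highest, and none was at 0. RN7SK, a small RNA that holds back transcription elongation, was at 347 CPM and RPPH1, the RNA of RNase P, at 112 CPM. LS174T 3D replicate 2 came next, with a sum of 109 CPM and RN7SK at 63.4 CPM, and the remaining 22 libraries lay between 3.83 and 19.0 CPM. In LS513, HCT116 and LS174T every 3D library lay above every 2D library in this sum. Its 3D over 2D ratios were 1.92, 2.23 and 7.41 in that order, the last with replicate 2 included. In HT29 without 2D replicate 3 the ratio was 1.23, and the libraries overlapped. The part of these RNAs in the histone results was not tested. The list of these RNAs was written after that library had been seen to stand apart.

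**Figure D1:**
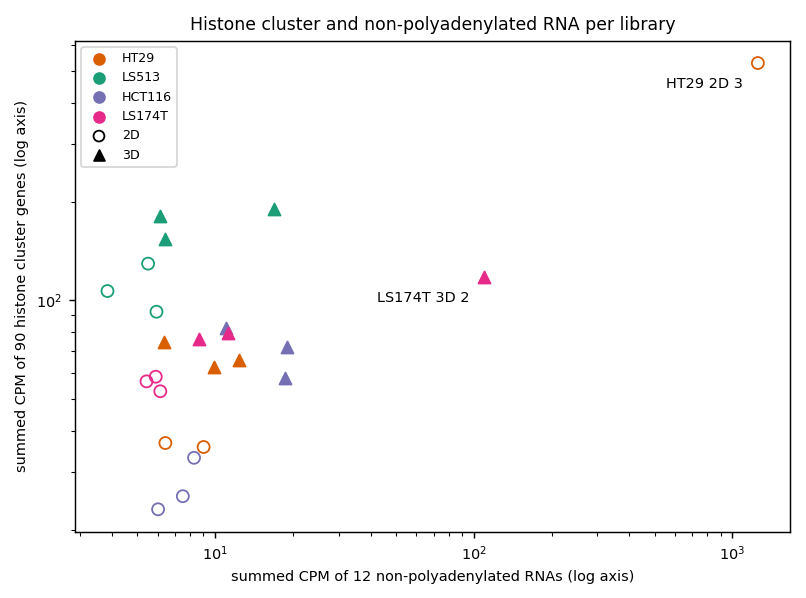
Summed CPM of the 90 histone cluster genes (vertical, log axis) against the summed CPM of 12 RNAs without a poly(A) tail (horizontal, log axis), each point 1 library, colored by line, with circles for 2D and triangles for 3D. HT29 2D replicate 3 lies at the upper right at 529 CPM, LS174T 3D replicate 2 lies to the right of the other 22 libraries, and in each line the other 3D libraries lie above the other 2D libraries.

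The excess in HT29 2D replicate 3 was uneven among the members. In the 30 members with more than 6 counts in the other pair of HT29 2D libraries, its level was 0.947 to 195 times the mean of that pair, with a median of 16.1. By histone type the summed ratio was 59.6 for H4, 35.05 for H1, 29.1 for H3, 10.3 for H2A and 8.17 for H2B. It was 6.47 for the 6 members known to give polyadenylated forms and 20.9 for the other 84. Linker histone genes show the spread: HIST1H1E was at 26.8 CPM there and at 0.137 and 0.138 CPM in replicates 1 and 2, HIST1H1B was at 32.0 against 0.137 and 0.206 CPM, and HIST1H1C was at 36.0 against 2.47 and 2.82 CPM. HIST3H2A, with 4.33 against 4.32 and 4.82 CPM, and the pseudogene HIST2H2BC, with 6.19 against 7.17 and 5.75 CPM, were no higher in it.

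The ratio also differed with the annotated end of the transcript. Its median was 13.2 over 19 protein-coding members with an annotated 3′ UTR of more than 200 bases and 69.8 over 9 members with a shorter one or none. In the other 23 libraries the median level per kb of exon was 0.260 CPM over the 25 members with the longer UTR and 0.124 CPM over the 46 others. These are descriptions across genes, which are not replicates. The counts of called members below are given with the 24 libraries and without HT29 2D replicate 3, and so are the values of named members whose call it changed. That library was singled out after its values for these same genes had been seen. Leaving it out lowers the HT29 2D mean of every member that was high in it.

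Across the 24 libraries 22 members had no count, 11 of them protein-coding, and 12 had more than 3 counts in every library. Per kb of exon, the highest mean level over the 24 libraries was that of HIST1H1C, a linker histone gene, at 24.4 CPM, followed by HIST1H2BK at 20.2, HIST1H2AC at 9.26, HIST3H2A at 8.37, HIST1H2BD at 7.04 and HIST2H2BE at 2.63 CPM. Without HT29 2D replicate 3 the same 6 genes held ranks 1 to 6 in the same order. These 6 genes made up 51.3% to 83.1% of all member counts in a library, except in HT29 2D replicate 3, where they made up 18.5%. Ranks 7 to 12 over the 24 libraries went to HIST2H2AC, HIST1H1B, HIST1H2BJ, HIST1H2AE, HIST1H3H and HIST1H2BC, and HIST1H1B, at 2.18 CPM per kb, held rank 8 with that library only: without it, HIST1H1B was at 0.228 CPM per kb and rank 32. HIST1H2AM and HIST1H3J share exonic bases and had equal counts in 7 of the 24 libraries, so reads on shared bases may be counted for both.

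**Figure D2:**
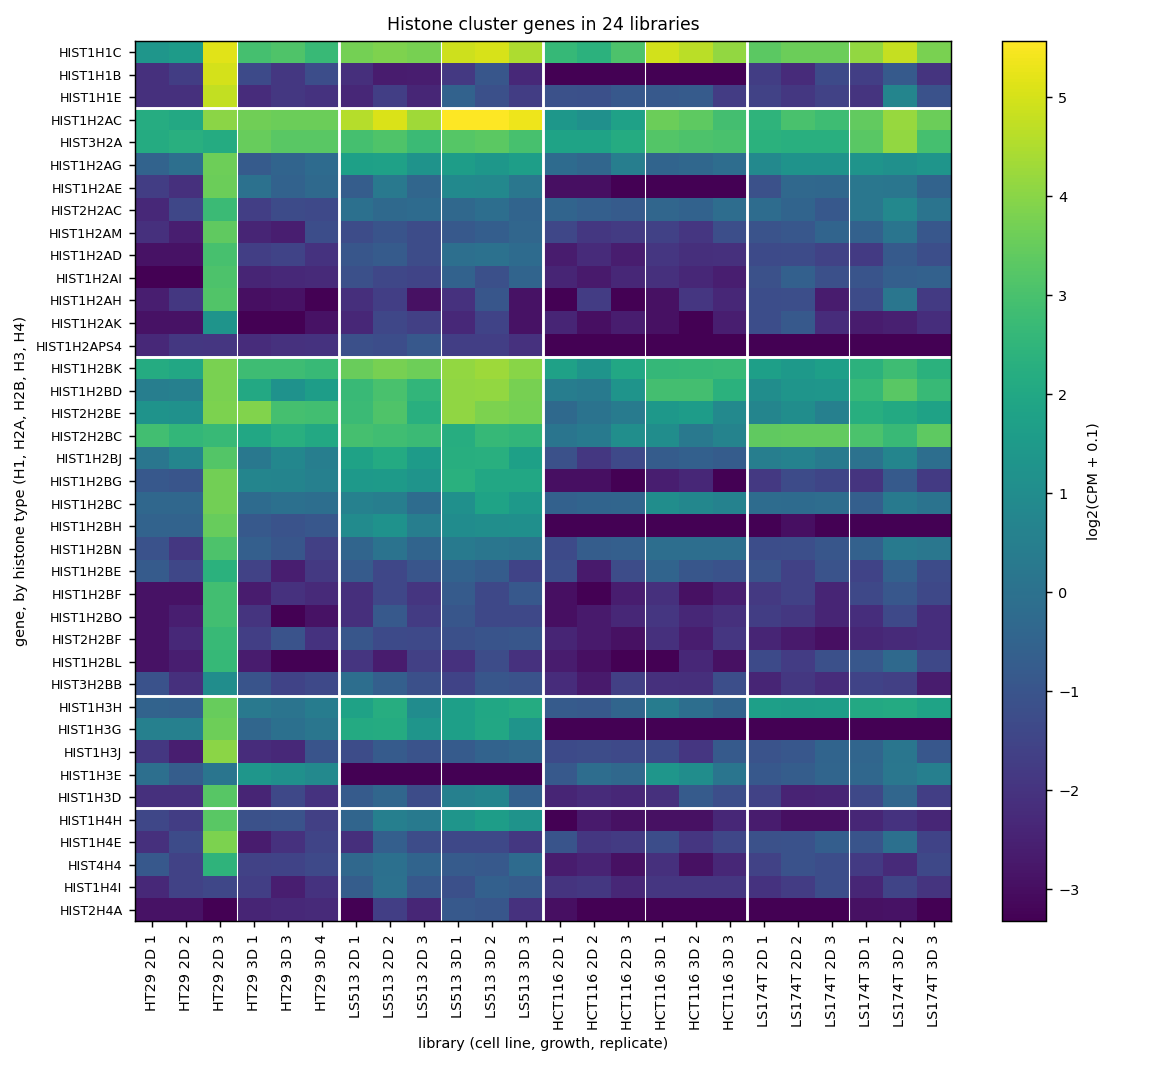
Level of the 39 histone cluster genes that passed the filter on low counts with or without HT29 2D replicate 3 (rows, by histone type), in each of the 24 libraries (columns), colored by log2(CPM + 0.1). HT29 2D replicate 3 is a bright column across nearly all rows, and dark blocks mark genes with few or no counts in a line, such as HIST1H3E in LS513 and HIST1H3G in HCT116 and LS174T.

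In sum, histone cluster RNA was higher in 3D than in 2D in LS513, HCT116 and LS174T. It was 109.6 ± 18.7 CPM in 2D and 175 ± 18.9 CPM in 3D in LS513 (SD, n = 3 each), 27.2 ± 5.28 and 70.7 ± 12.3 CPM in HCT116, and 56.0 ± 2.90 and 91.3 ± 23.4 CPM in LS174T, ratios of 1.596, 2.602 and 1.63. In each of these lines the lowest 3D library lay above the highest 2D library, and an exact two-sided permutation test of 3 against 3 cannot go below p = 0.10. The 6 members known to give polyadenylated forms had summed ratios of 1.83, 3.29 and 1.96 in LS513, HCT116 and LS174T. The other 84 had 1.20, 1.73 and 1.34. In LS513 the libraries overlapped for these 84, at 42.1, 47.5 and 33.7 CPM in 2D and 48.4, 54.3 and 45.6 CPM in 3D. Without 2D replicate 3 the HT29 ratios were 2.55 for the 6 and 1.34 for the 84. In HT29 the 3D libraries held 74.8, 65.9 and 62.6 CPM, above 2D replicates 1 and 2 and below replicate 3, so that the ratio was 0.338 with that library and 1.87 without it. LS174T 3D replicate 2 held 118 CPM, against 79.6 and 76.1 CPM in the other LS174T 3D libraries, all above the 2D libraries of that line. RNAs without a poly(A) tail were also higher in 3D in LS513, HCT116 and LS174T, and their part in these ratios was not tested. In bulk RNA a larger share of expressing cells and more RNA per cell cannot be told apart.

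By histone type, the 3D over 2D ratio of the summed H1 level was 2.09 in LS513, 3.54 in HCT116 and 1.76 in LS174T, and 2.64 in HT29 without 2D replicate 3. For H2A the ratios in the same order were 1.56, 2.39, 1.89 and 2.37, and for H2B 1.57, 2.32, 1.42 and 1.59. The summed H3 and H4 levels were lower: outside HT29 2D replicate 3 their sums reached at most 10.7 and 5.11 CPM. Their ratios were 1.12, 1.99, 1.48 and 1.46 for H3 and 1.503, 1.21, 1.09 and 0.944 for H4. HIST1H1C alone made up most of the H1 sum outside HT29 2D replicate 3. It held 13.6 of 13.9 CPM in LS513 2D, for instance, and 2.65 of 3.04 CPM in HT29 2D without that library.

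Gene by gene, 38 members passed the filter on low counts and were tested with edgeR's quasi-likelihood test over all 24 libraries, and a member is called where its Benjamini-Hochberg adjusted p over all 19387 tested genes is under 0.05. In HT29, 2 members rose in 3D and 26 fell, while 21.1% of all tested genes rose and 19.6% fell. In LS513 none was called in either direction (13.7% of all genes rose and 9.9% fell), in HCT116 6 rose and none fell (16.8% and 12.3%), and in LS174T 4 rose and none fell (13.1% and 9.15%).

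Without HT29 2D replicate 3, 39 members of 19833 genes were tested. In HT29, where 2D then had n = 2, 12 members rose and none fell, against 18.7% and 14.3% of all genes. The library was left out for its values in these same genes, so the HT29 counts are not independent of that choice. In LS513 11 rose (13% of all genes rose and 9.57% fell), in HCT116 8 rose (15.5% and 12.9%) and in LS174T 9 rose (12.9% and 8.1%), with no member called lower in any of them. Other libraries also moved the counts made with 24, and shares of all genes are not given for these fits. Leaving out HCT116 2D replicate 1 or 2 left 3 members higher in HCT116. Leaving out any LS174T 2D replicate or LS174T 3D replicate 2 left 1 higher in LS174T. The library counts toward the estimate of the spread for all lines, and its removal narrowed the standard errors of members in lines it does not belong to: in LS513 that of HIST1H1C went from 0.62 to 0.22 on the log2 scale at a log2 fold change of 1.05 in both. The median log2 fold change of the tested members was then 0.56 in HCT116, 0.53 in HT29, 0.47 in LS513 and 0.46 in LS174T, beside 0.00, 0.03, 0.00 and 0.02 over all tested genes. In HT29 with 24 libraries it was -2.83.

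**Figure D3:**
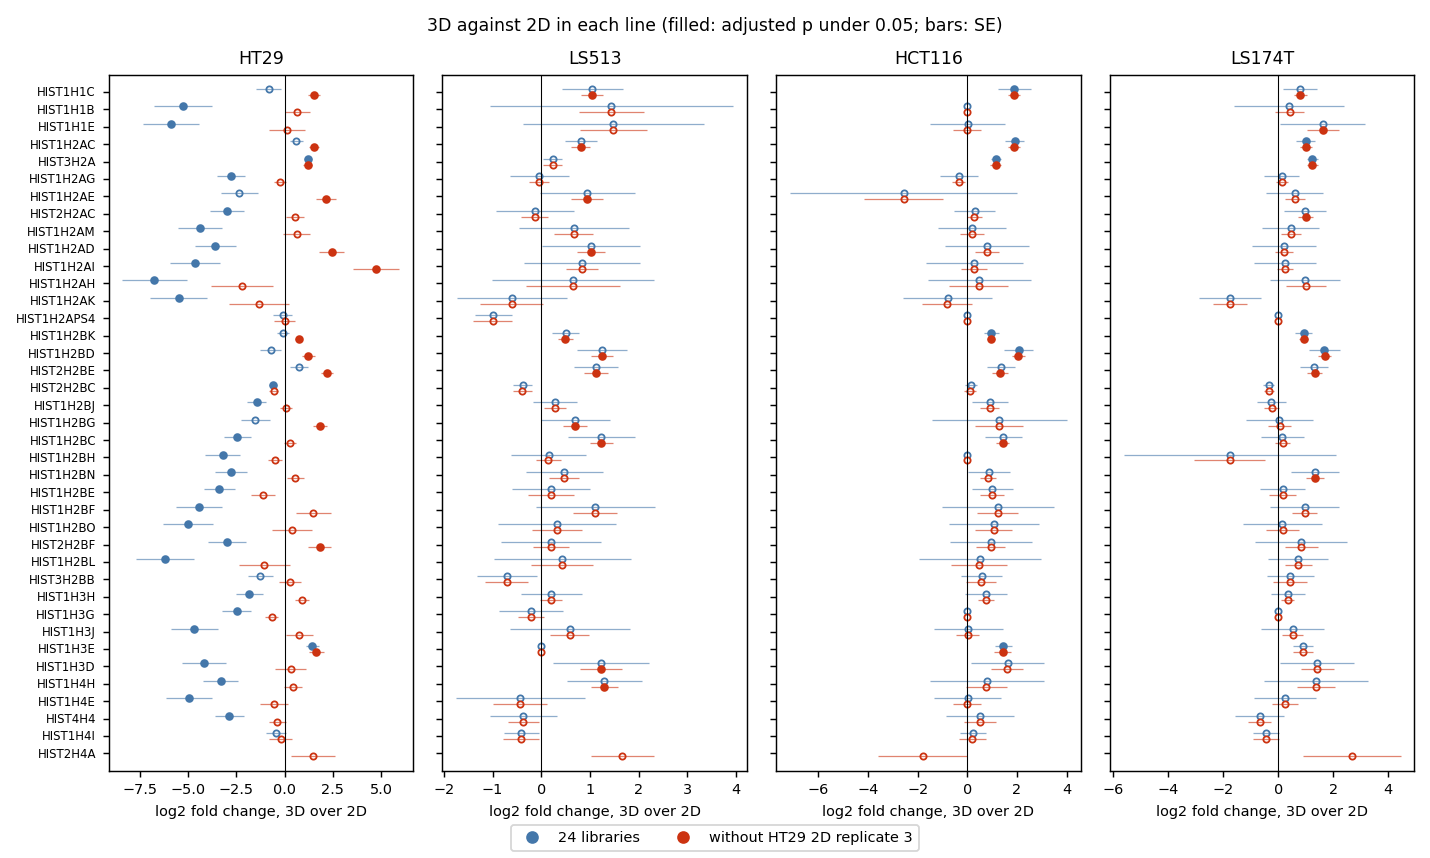
Log2 fold change of each member, 3D over 2D, in the 4 lines (horizontal, with a range of its own in each line), with its standard error, in blue over the 24 libraries and in red without HT29 2D replicate 3; filled points have an adjusted p under 0.05. In HT29 most blue points lie left of 0 and their red partners near or right of it, while in the other lines both lie together and the red bars are shorter.

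HIST1H1C, HIST1H2AC, HIST1H2BD, HIST1H2BK and HIST2H2BE rose in 3D in all 4 lines without HT29 2D replicate 3. With the 24 libraries HIST1H1C was called in HCT116, HIST1H2AC, HIST1H2BD and HIST1H2BK in HCT116 and LS174T, and HIST2H2BE in no line. All of them belong to the 6 members named above as giving polyadenylated forms, and the last of that group, HIST1H2BJ, was called in no line without that library (log2 fold changes from -0.24 in LS174T to 0.89 in HCT116). HIST3H2A, from the small HIST3 cluster, rose in HT29, HCT116 and LS174T with and without that library. HIST1H2AD, HIST1H2AE and HIST1H2BG rose in HT29 and LS513 without it, HIST1H2BC in LS513 and HCT116, and HIST1H3E in HT29 and HCT116. In a single line rose HIST1H2AI and HIST2H2BF (HT29), HIST1H3D and HIST1H4H (LS513), and HIST1H1E, HIST2H2AC and HIST1H2BN (LS174T), and the remaining 21 members tested were called in no line. HIST1H2AI had 0 and 0 counts in HT29 2D replicates 1 and 2 and 3, 3 and 3 in 3D, at the floor of 3 counts, so its call rests on values that this depth cannot tell from 0. HIST1H2AD and HIST2H2BF were also at or under that floor in HT29 2D replicates 1 and 2. HIST1H2AD had 1 and 1 counts there and 7, 7 and 4 in 3D, and HIST2H2BF had 1 and 3 there and 7, 11 and 4 in 3D. HIST2H2AC lost its call in LS174T with LS174T 3D replicate 2 left out as well (adjusted p = 0.12). With LS174T 3D replicate 2 also left out, 6 members rose in LS174T and 0 fell, with a median log2 fold change of 0.20, while 7.1% of all genes rose and 3.43% fell. The 52 members not tested with the 24 libraries were the 22 with no count and 30 that did not pass the filter. Some of these had many counts in HT29 2D replicate 3 and few elsewhere. HIST1H3B had 280 counts there and at most 22 in any other library, and HIST1H4B had 221 and at most 8.

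HIST1H1C encodes the linker histone H1.2. In HCT116 it was at 6.16, 5.15 and 8.41 CPM in 2D and 30.7, 25.0 and 17.5 CPM in 3D, with no overlap, a log2 fold change of 1.89 ± 0.65 (SE) and an adjusted p of 0.035. LS513 went from 13.1, 14.5 and 13.3 to 29.7, 33.0 and 22.1 CPM, also without overlap; the adjusted p was 0.25 over the 24 libraries and 0.0016 without HT29 2D replicate 3. In HT29 its 3D libraries, at 7.57, 8.68 and 6.203 CPM, lay above 2D replicates 1 and 2 and far below replicate 3, and the log2 fold change turned from -0.83 (adjusted p = 0.34) to 1.53 (adjusted p = 4.8e-04). LS174T had 10.05, 11.9 and 11.8 CPM in 2D and 17.5, 27.8 and 13.7 CPM in 3D, the highest being the replicate 2 described above, with an adjusted p of 0.38 over the 24 libraries and 0.014 without HT29 2D replicate 3.

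HIST1H2AC, which encodes an H2A, had the largest share of all member counts. It was at 2.51, 2.10 and 3.30 CPM in HCT116 2D and 11.9, 10.1 and 7.45 CPM in 3D, a log2 fold change of 1.90 ± 0.38 (SE) with an adjusted p of 6.7e-04 over the 24 libraries. LS513 held the highest level, 23.7, 33.2 and 19.8 CPM in 2D and 47.4, 47.0 and 40.6 CPM in 3D, and there the 3D libraries also lay above all 2D libraries, with an adjusted p of 0.076 with and 0.0049 without HT29 2D replicate 3. In LS174T, 5.38, 8.05 and 6.90 CPM in 2D rose to 10.8, 18.05 and 11.9 CPM in 3D, with a log2 fold change of 1.00 ± 0.35 (SE) and an adjusted p of 0.042. The HT29 values were 4.46 and 4.03 CPM in 2D replicates 1 and 2, 16.0 CPM in replicate 3 and 12.5, 11.8 and 11.9 CPM in 3D, and the adjusted p went from 0.18 to 1.0e-04 without replicate 3.

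Among the H2B genes, HIST1H2BD showed the largest increase in HCT116 of all called members, from 1.27, 1.18 and 2.31 to 7.48, 7.38 and 5.01 CPM, a log2 fold change of 2.07 ± 0.58 (SE) with an adjusted p of 0.011. In LS174T it went from 1.97, 2.42 and 2.46 to 6.07, 9.70 and 6.33 CPM and in LS513 from 6.47, 7.98 and 5.70 to 16.9, 17.5 and 13.4 CPM, in both without overlap. In LS513 its adjusted p was 0.086 with and 4.3e-04 without HT29 2D replicate 3, and in HT29 0.33 and 0.0051. HIST1H2BK changed less, from 3.26, 2.30 and 3.88 to 6.02, 6.04 and 6.32 CPM in HCT116 (log2 fold change 0.96, SE 0.30, adjusted p = 0.020) and from 3.14, 2.67 and 3.11 to 5.12, 6.85 and 5.01 CPM in LS174T (adjusted p = 0.033). For HIST1H2BK in LS513 and HT29 the adjusted p was 0.21 and 0.86 with that library and 0.018 and 0.0040 without it. Only 49.5% of the 75-base windows of its annotated exon occur in no other gene, and reads that aligned more than once had been removed. Reads from windows shared with H2BFS and other H2B copies may therefore be missing from its count. HIST2H2BE was at 6.63, 8.61 and 4.78 CPM in LS513 2D and 16.8, 13.99 and 12.9 CPM in 3D, and at 2.26 and 2.13 CPM in HT29 2D replicates 1 and 2, 13.9 CPM in replicate 3 and 14.5, 7.54 and 7.22 CPM in 3D. For HIST2H2BE the adjusted p over the 24 libraries was 0.21, 0.075, 0.080 and 0.068 in HT29, LS513, HCT116 and LS174T, and without that library 2.3e-05, 0.0022, 0.0033 and 0.0024.

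HIST3H2A, an H2A gene on chromosome 1, was not raised in HT29 2D replicate 3. HT29 held 4.32, 4.82 and 4.33 CPM in 2D and 11.3, 9.79 and 9.72 CPM in 3D, with a log2 fold change of 1.19 ± 0.21 (SE) and an adjusted p of 9.5e-05. HCT116 rose from 3.47, 3.45 and 4.36 to 8.94, 8.30 and 7.96 CPM (log2 fold change 1.16, SE 0.21) and LS174T from 5.02, 4.75 and 4.83 to 9.66, 17.2 and 7.59 CPM (log2 fold change 1.23, SE 0.20). In LS513 the libraries overlapped, 7.59, 8.64 and 6.65 CPM in 2D and 9.19, 10.02 and 7.80 CPM in 3D, and the log2 fold change was 0.24 ± 0.20 (SE) with an adjusted p of 0.44. Without both HT29 2D replicate 3 and LS174T 3D replicate 2, its log2 fold change in LS174T was 0.83 ± 0.15 (SE) with an adjusted p of 8.7e-04, and the log2 fold changes of HIST1H2AC, HIST1H2BD, HIST1H2BK and HIST1H1C were 0.75, 1.45, 0.78 and 0.48 with adjusted p of 0.019, 3.9e-04, 0.0035 and 0.15.

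**Figure D4:**
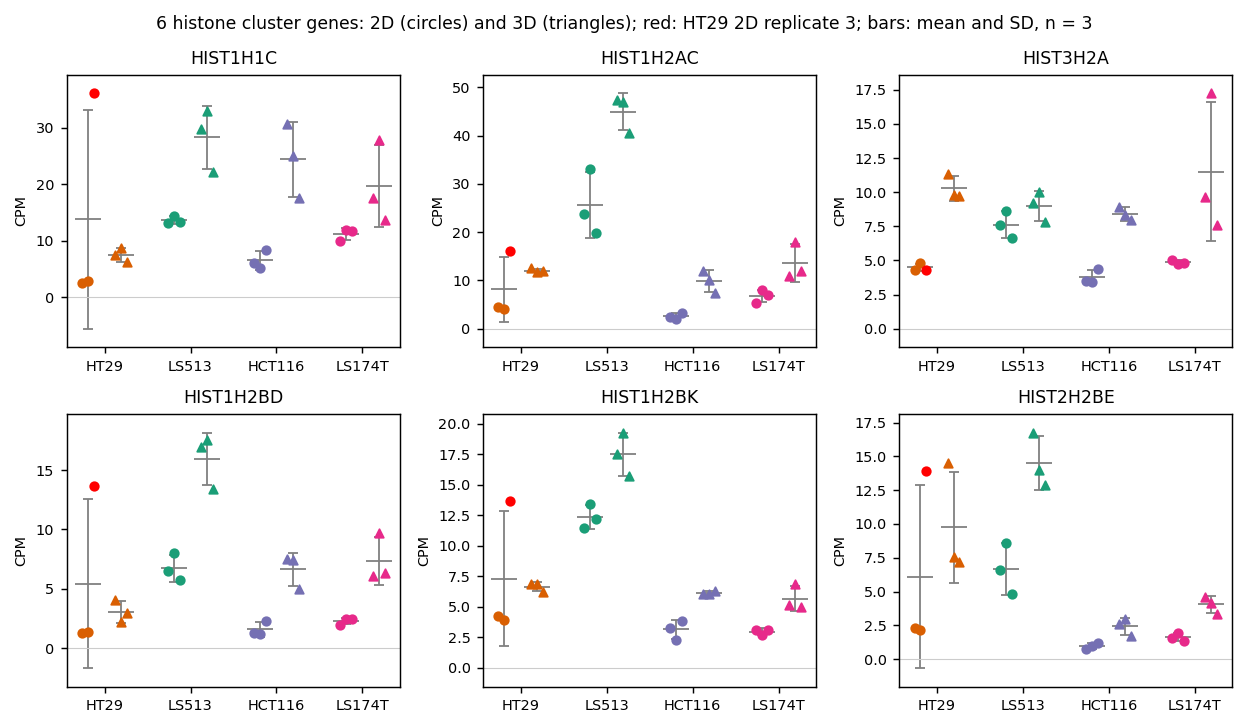
CPM of 6 histone cluster genes in every library (points) with the mean and SD of each group of 3 (bars), circles for 2D and triangles for 3D, and HT29 2D replicate 3 in red. In HCT116 and LS174T all 3D points lie above the 2D points for each of the 6 genes, and the red point lies above the HT29 3D points for all but HIST3H2A and HIST2H2BE.

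Of the other H1 genes, HIST1H1B and HIST1H1E, which encode H1.5 and H1.4, were called lower in HT29 with the 24 libraries (log2 fold changes -5.28 and -5.88), and without 2D replicate 3 these were 0.66 ± 0.65 (SE) and 0.11 ± 0.92 (SE) with adjusted p of 0.47 and 0.98. HIST1H1B had no count in any HCT116 library. HIST1H1E was at most 1.57 CPM outside that library, in LS174T 3D replicate 2, the other library rich in RNA without a tail, where it had 43 counts. It was called higher in LS174T without HT29 2D replicate 3 (log2 fold change 1.63, adjusted p = 0.049), and with LS174T 3D replicate 2 also left out its log2 fold change was 0.28 with an adjusted p of 0.80. HIST1H1D, the H1.3 gene, was at 11.7 CPM in HT29 2D replicate 3 and at or below 0.211 CPM elsewhere. HIST1H1T, the testis H1 gene, had at most 4 counts in a library, the pseudogene HIST1H1PS1 at most 7, and HIST1H1A and the pseudogene HIST1H1PS2 had none.

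Several H2A genes showed the same contrast within HT29. HIST1H2AH had 2, 5 and 159 counts in the HT29 2D libraries and at most 1 in a 3D library. HIST1H2AK had 42 counts in 2D replicate 3 and at most 1 in every other HT29 library. Both were called lower in HT29 with the 24 libraries and not without that one (adjusted p = 0.31 and 0.55). HIST1H2AE rose in HT29 without that library, from 0.206 and 0.138 to 0.905, 0.588 and 0.726 CPM (log2 fold change 2.12, SE 0.52, adjusted p = 0.0037), where with it the value was -2.35 (adjusted p = 0.058). In LS513 its adjusted p was 0.54 with and 0.045 without that library. HIST2H2AC, known as the H2A gene beside HIST2H2BE, was -2.99 with and 0.53 without it (adjusted p = 0.0086 and 0.45), and 76.3% of its windows are its own. HIST1H2APS4, a transcribed pseudogene, was at 0.354, 0.332 and 0.444 CPM in LS513 2D and 0.211, 0.213 and 0.139 CPM in 3D, with no count in HCT116 or LS174T.

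HIST1H2BC, another H2B gene of the HIST1 cluster, rose in LS513 and HCT116 without HT29 2D replicate 3, from 1.42, 1.30 and 0.792 to 2.11, 3.45 and 2.74 CPM and from 0.574, 0.633 and 0.642 to 1.96, 1.63 and 1.44 CPM, with log2 fold changes of 1.23 ± 0.24 (SE) and 1.42 ± 0.26 (SE). The adjusted p was 6.5e-04 and 3.7e-04, and with that library 0.21 and 0.16. In HT29 it was called lower with that library (-2.45, adjusted p = 0.0091) and at 0.27 without it. In LS174T it was 0.777, 0.768 and 0.7998 CPM in 2D and 0.552, 1.13 and 0.952 CPM in 3D, overlapping. HIST1H2BE was called lower in HT29 with the 24 libraries (log2 fold change -3.39) and was at -1.14 without 2D replicate 3, with an adjusted p of 0.16. HIST1H2BL had 112 counts in that library and at most 2 in every other HT29 library. HIST3H2BB was called in no line with either set of libraries, with levels from 0.0575 to 0.837 CPM outside HT29 2D replicate 3. The transcribed pseudogene HIST2H2BC was lower in HT29 3D: it was 7.17, 5.75 and 6.19 CPM in HT29 2D and 3.95, 4.74 and 4.06 CPM in 3D, without overlap, with a log2 fold change of -0.58 ± 0.21 (SE) and adjusted p of 0.026 with and 0.054 without that library.

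HIST1H3E was the H3 gene that rose in 3D with both sets of libraries. It was at 0.857, 0.516 and 0.986 CPM in HT29 2D and 2.44, 2.11 and 1.70 CPM in 3D, with a log2 fold change of 1.43 ± 0.35 (SE) and an adjusted p of 0.0028, and at 0.453, 0.805 and 0.706 and 2.43, 1.93 and 1.00 CPM in HCT116, with a log2 fold change of 1.44 ± 0.34 (SE) and an adjusted p of 0.0039. HIST1H3H, at 3.11, 3.01 and 3.08 CPM in LS174T 2D and 3.99, 4.27 and 3.44 CPM in 3D, was called in HT29 with the 24 libraries (-1.82, adjusted p = 0.044), and without 2D replicate 3 its value was 0.90 with an adjusted p of 0.052. HIST1H3D was -4.17 in HT29 with and 0.31 without that library. HIST1H3D lies within an annotated longer gene, AL031777.3, together with HIST1H2AD, and the count of that gene was at least the sum of both in 24 of the 24 libraries.

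Among the H4 genes, HIST1H4H rose in LS513 from 0.644, 1.33 and 1.14 to 2.39, 3.02 and 2.29 CPM, with adjusted p of 0.25 over the 24 libraries and 0.0015 without HT29 2D replicate 3. HIST4H4, the single member of its cluster, was called lower in HT29 with the 24 libraries (0.446, 0.241 and 5.42 CPM in 2D and 0.241, 0.242 and 0.290 CPM in 3D), and its log2 fold change went from -2.86 ± 0.74 (SE) to -0.39 ± 0.44 (SE) without that library, with an adjusted p of 0.54. HIST1H4G had 1 count in all.

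The 11 protein-coding members with no count in any library differ in how unique their sequence is. HIST2H2AA3, HIST2H2AA4, HIST2H3A, HIST2H3C and HIST2H4B lie in a duplicated stretch of the HIST2 cluster, and at most 3.1% of the 75-base windows of their exons occur in no other gene. Reads that aligned more than once had been removed, so their 0 says nothing of their expression. HIST2H3PS2 keeps 62.3% of its windows. For HIST1H1A, HIST1H2AA, HIST1H2BA, HIST3H3 and HIST1H4F all windows are their own, and 0 counts in the deepest library allow up to 0.0875 CPM. HIST1H2AA, HIST1H2BA and HIST3H3 are known as testis histone genes. The HIST3 pseudogene HIST3H2BA also had no count.

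The lines differed in which members they expressed. According to the paper, HCT116 was kept in McCoy medium and the other lines in DMEM, so line and medium cannot be told apart for HCT116. Over both growth conditions 21 of the 38 tested members differed between lines with the 24 libraries and 38 of 39 without HT29 2D replicate 3, while 95.7% and 95.2% of all tested genes did. The first count lies below the share of all genes and the second near it, so neither is a result particular to the members. Without HT29 2D replicate 3, LS513 had the highest summed level in 2D, 109.6 ± 18.7 CPM, above LS174T at 56.0 ± 2.90 CPM, HT29 at 36.3 ± 0.715 CPM (SD, n = 2) and HCT116 at 27.2 ± 5.28 CPM, each step without overlap between libraries. In 3D LS513 was again the highest, and the HCT116 libraries overlapped those of LS174T and of HT29, while every LS174T library lay above every HT29 library. HIST1H2AC, HIST1H2BJ, HIST1H2BK, HIST1H3E, HIST1H2APS4 and HIST2H2BC had the smallest p between lines with the 24 libraries. HIST1H2BJ, for instance, was at 3.35, 4.26 and 2.85 CPM in LS513 2D and 0.362, 0.173 and 0.289 CPM in HCT116 2D. HIST2H2BC was highest in LS174T, with 10.3, 10.6 and 10.7 CPM in 2D, and lowest in HCT116, with 0.997, 1.15 and 1.99 CPM.

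Some members had no count in a whole line. HIST1H3E had 0 counts in all 6 LS513 libraries, while every other library had at least 15 counts, and its HT29 level without 2D replicate 3 was at least 14.3-fold higher than the floor of 3 counts per LS513 library. HIST1H3G had 0 counts in all 12 libraries of HCT116 and LS174T, against 67 to 143 counts in LS513, a level at least 30.9-fold higher. HIST1H2BH had 0 counts in HCT116 and at most 1 in LS174T, against 41 to 73 counts in LS513, at least 18.8-fold higher than the floor in HCT116. HIST1H3G and HIST1H2BH both lie in the HIST1 cluster on chromosome 6, at 26269405 to 26271815 and 26251651 to 26253710. HIST1H3G and HIST1H2BH were named here after their values were seen.

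Whether growth acted alike in the lines was tested by the interaction of growth and line. With the 24 libraries it was called for 7 members (17.1% of all genes): HIST1H1E, HIST1H2BC, HIST1H2BE, HIST1H2BN, HIST1H3D, HIST1H4H and HIST3H2A. Without HT29 2D replicate 3 it was called for 2 (14.6% of all genes), HIST1H2BC (adjusted p = 0.038) and HIST3H2A (adjusted p = 0.042). For HIST3H2A the log2 fold change was 0.23 in LS513 and 1.14 to 1.24 in the other lines, and for HIST1H2BC it was 0.27 and 0.16 in HT29 and LS174T and 1.23 and 1.42 in LS513 and HCT116. For HIST1H1C and HIST1H2AC it was not called (adjusted p = 0.085 and 0.054), which does not show that they changed alike.

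Replacement variant histones are encoded outside the clusters. Of all genes tested with the 24 libraries, 16.8% rose and 12.3% fell in HCT116, 21.1% and 19.6% in HT29, 13.7% and 9.9% in LS513, and 13.1% and 9.15% in LS174T, and their median log2 fold changes were 0.01, 0.00, 0.00 and 0.02 in that order; these hold for each of the 4 lists below. Of the 20 listed, 11 were tested, and with the 24 libraries 1 rose and 3 fell in HCT116, 1 rose and 3 fell in HT29, 2 rose and 2 fell in LS513 and 1 rose and 1 fell in LS174T, the last near the shares of all genes in that line. Their median log2 fold changes were -0.11, 0.03, -0.02 and -0.11 in that order, and 3, 1, 2 and 1 fell in the same order without HT29 2D replicate 3. H2AFJ, an H2A variant gene, rose in HT29, LS513 and HCT116 (log2 fold changes 1.15, 0.54 and 1.05) and was nearly absent from LS174T, at 0.0284 ± 0.0493 CPM in 2D. H1F0, the linker variant H1.0 known to accumulate in cells that leave the cycle, was at 640.4 ± 35.1 CPM in LS513 2D and 856 ± 37.0 CPM in 3D (log2 fold change 0.42, adjusted p = 0.013), and its values were 0.29, 0.23 and 0.46 in HT29, HCT116 and LS174T (adjusted p = 0.053, 0.15 and 0.0083). H1F0 was called in HT29 without 2D replicate 3, at 0.39 with an adjusted p of 0.029. CENPA, the H3 variant of the centromere, fell in HT29, LS513 and HCT116 by 0.59, 0.50 and 0.31 on the log2 scale. H2AFZ (H2A.Z) and H3F3B (H3.3) were called in no line, at 364 to 667 and 306 to 879.6 CPM.

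Among genes that transcribe and process histone pre-mRNA, more fell than rose in 3D. Of 22 tested, beside the shares of all genes given above, 1 rose and 12 fell in HCT116, 1 rose and 11 fell in HT29, 1 rose and 7 fell in LS513 and 1 rose and 7 fell in LS174T. The median log2 fold changes were -0.30, -0.29, -0.29 and -0.28 in that order, against 0.01, 0.00, 0.00 and 0.02 over all genes, and 14, 9, 6 and 7 fell in the same order without HT29 2D replicate 3. NPAT, the coactivator of histone gene transcription, fell in HT29, LS513 and HCT116 (log2 fold changes -0.78, -0.59 and -0.64), and so did LSM11, a part of the U7 snRNP that cuts histone pre-mRNA (-0.95, -0.59 and -0.42). CDK2, the kinase that acts on NPAT, fell in all 4 lines, and HINFP, the factor of H4 promoters, rose in all 4 with the 24 libraries, by 0.30 in LS513 and 0.42 in LS174T, though not in HT29 without 2D replicate 3 (adjusted p = 0.11). SLBP, which binds the stem-loop, had log2 fold changes of -0.07, -0.20, -0.25 and -0.10 in HT29, LS513, HCT116 and LS174T, with adjusted p of 0.60, 0.15, 0.055 and 0.50.

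Among histone chaperones and genes of DNA synthesis, too, more fell than rose in 3D. Of 21 chaperone genes, beside the shares and medians of all genes given above, 0 rose and 12 fell in HCT116, 0 rose and 14 fell in HT29, 0 rose and 9 fell in LS513 and 1 rose and 8 fell in LS174T. The medians were -0.34, -0.35, -0.25 and -0.20 in that order, and 14, 11, 9 and 6 fell in the same order without HT29 2D replicate 3. CHAF1B, a subunit of CAF-1, SSRP1, a subunit of FACT, IPO4, the importin of H3 and H4, and TONSL and MMS22L, which act at damaged forks, fell in all 4 lines, MMS22L by 1.07, 0.63, 1.01 and 0.89 on the log2 scale in HT29, LS513, HCT116 and LS174T. Without HT29 2D replicate 3 IPO4 was no longer called in LS174T (adjusted p = 0.058). Of 20 DNA synthesis genes, 0 rose and 15 fell in HCT116, 0 rose and 9 fell in HT29, 0 rose and 13 fell in LS513 and 0 rose and 8 fell in LS174T. Here the medians were -0.39, -0.24, -0.27 and -0.22, and 15, 8, 12 and 7 fell in the same order without HT29 2D replicate 3. RRM1 and TYMS, which supply nucleotides, MCM4, POLA1 and POLE fell in all 4 lines, RRM1 by 0.54, 0.54, 0.63 and 0.40. The summed level of the list, unlike that of the cluster members, was close in the 3 HT29 2D libraries, 4392, 4216 and 4394 CPM, with 3490.1, 3604 and 3642 CPM in 3D.

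**Figure D5:**
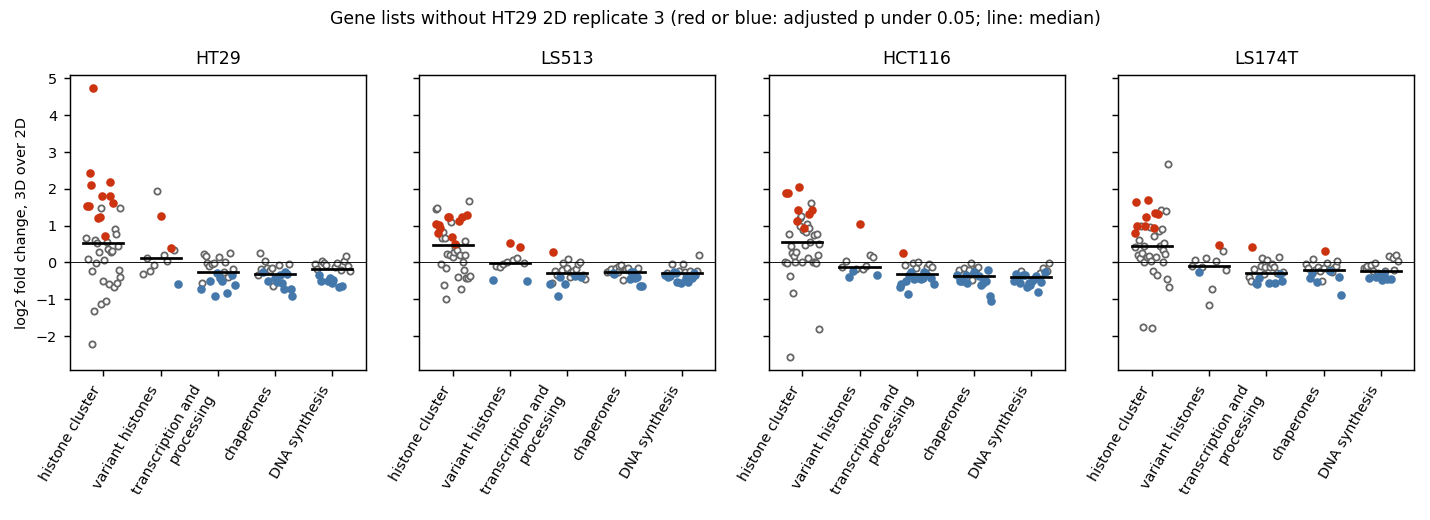
Log2 fold change, 3D over 2D (vertical), of the tested histone cluster genes and of the genes of 4 lists (horizontal) in each line, without HT29 2D replicate 3; red and blue points have an adjusted p under 0.05 and lie above or below 0, and lines mark the median. The medians of the histone cluster lie between 0.46 and 0.56, and those of processing, chaperone and DNA synthesis genes lie below 0 in every line.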

How the data were processed

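The deposited files hold the authors' raw counts per Ensembl 91 gene, one file per technical replicate, made from 75-base single reads of oligo(dT)-selected, strand-specific libraries (bcl2fastq 2.18.0.12, Trim Galore 0.4.1, STAR, HTSeq 0.5.3). Reads that aligned more than once had been removed. GEO's genome build label names hg19, whereas coordinates here are those of GENCODE 29 on GRCh38. Counts of 7 or 8 technical replicates were summed to 24 libraries. An edgeR 4.0.16 quasi-likelihood fit (R 4.3.3, robust, TMM, filterByExpr) over 8 groups gave 3D against 2D per line, the interaction and the difference between lines, with Benjamini-Hochberg adjustment over all tested genes. DESeq2 1.42.0 was an alternative. The fit was tested on simulated data in which all genes shared a single spread and no library stood apart. That test does not bear on the effect of HT29 2D replicate 3. The members and lists were chosen with earlier results of these data known. Members were named by level, by size of the called change, by the smallest p of the interaction and between lines, and by cluster or lack of counts, and others after their values were seen. The labels do not say whether equal replicate numbers pair the libraries, so the main fit held no pairing. Stem-loops were read from GENCODE 29 transcripts and promoters from RefSeq (GRCh38.p14). Tests of over-represented groups were not run. One HT29 3D number is missing from the labels, so replicates there are 1, 3 and 4.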

Additional observations from a re-analysis of the deposited data

Results flagged for a closer look

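For 7 histone cluster genes the effect of 3D growth differed between lines by edgeR's interaction test over the 24 libraries. These are 7 of 38 tested members, near the 17.1% of all tested genes, so the count is no result about the members. The adjusted p was 0.0251 for HIST1H2BC, 0.0313 for HIST3H2A, 0.0318 for HIST1H2BE, 0.0329 for HIST1H3D, 0.0411 for HIST1H4H, 0.0463 for HIST1H1E and 0.0498 for HIST1H2BN. In HT29 the log2 fold changes of HIST1H2BE, HIST1H3D, HIST1H4H, HIST1H1E and HIST1H2BN were -3.39, -4.17, -3.30, -5.88 and -2.79, and without HT29 2D replicate 3 the adjusted p of the interaction was 0.27, 0.81, 0.69, 0.39 and 0.51 for the same genes. For HIST3H2A and HIST1H2BC it stayed under 0.05, at 0.042 and 0.038.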

How the results depend on the processing

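With each library left out in turn, the count of histone cluster genes called ran from 2 to 12 (higher) and 0 to 31 (lower) in HT29, 0 to 11 (higher) in LS513, 3 to 8 in HCT116 and 1 to 9 in LS174T, 1 to 25 for the interaction and 21 to 38 between lines. In each line the highest count higher, and in HT29 the lowest count lower, came without HT29 2D replicate 3. The HCT116 count was 3 without 2D replicate 1 or 2, the LS174T count 1 without any 2D replicate or 3D replicate 2, and the LS513 count 1 without 2D replicate 2 or 3D replicate 3. The interaction count was 25 and 24 without HT29 2D replicate 1 or 2, 4 or fewer without any other library but LS174T 3D replicate 1, and 5 without that one. The summed 3D over 2D ratio in HT29 ran from 0.240 to 1.87. For most settings in this section the shares of all genes called are not given. The counts show how the calls moved and are no result about the members or the lists.

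With every gene of at least 1 count fitted, HT29 had 4 members higher and 50 lower, LS513 13 higher, LS174T 11 higher and 1 lower, the interaction 47 and the difference between lines 56. DESeq2 called 11 lower in HT29, and a fit of the 6 libraries of 1 line 1 lower in HT29 and 10 higher in LS513. DESeq2 gave no adjusted p for several tested members, among them HIST1H1B, HIST1H1E and HIST1H2AH, so its count covers fewer members than edgeR's. At the log2 limits the study used (-0.5 and 1.5 beside the adjusted p), 0, 3 and 1 members were higher in HT29, HCT116 and LS174T. Without technical replicate d the interaction count was 4. Without HT29 2D replicate 3 and LS174T 3D replicate 2, a choice made after seeing the data, 13 members were higher and 1 lower in HT29, 12 higher in LS513 and 11 in HCT116, 37 differed between lines, and the summed HT29 ratio was 1.87.

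In HT29 4 of 38 tested members had a log2 fold change above 0 with the 24 libraries and 27 of 39 without HT29 2D replicate 3. For 12 of those that turned from below to above 0, the log2 fold changes with each library left out ran from -5.82 to 0.66 for HIST1H1B, -1.29 to 1.53 for HIST1H1C, -6.42 to 0.11 for HIST1H1E, -2.90 to 2.12 for HIST1H2AE, -2.93 to 0.27 for HIST1H2BC, -1.17 to 1.23 for HIST1H2BD, -1.88 to 0.079 for HIST1H2BJ, -0.36 to 0.72 for HIST1H2BK, -4.72 to 0.31 for HIST1H3D, -2.32 to 0.90 for HIST1H3H, -3.84 to 0.44 for HIST1H4H and -3.54 to 0.53 for HIST2H2AC. Without that library and LS174T 3D replicate 2 the values were, in the same order, 0.66, 1.53, 0.11, 2.12, 0.27, 1.24, 0.079, 0.73, 0.31, 0.90, 0.45 and 0.53.

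For the 4 lists together (variants, processing, chaperones and DNA synthesis), the HT29 count higher was 4 with DESeq2's size factors, 5 with DESeq2, 5 with the line's own libraries and 4 without the 2 libraries. At the study's limits it was 0 higher and 20 lower in HT29, 0 and 8 in LS513, 0 and 15 in HCT116, and 0 and 7 in LS174T. The line's own libraries gave 1 higher in HCT116, as did the fit of all genes with a count (1), and 0 higher and 10 lower in LS174T. With each library left out the counts were 1 to 5 higher in HT29, 0 to 3 higher and 20 to 33 lower in LS513, 1 to 2 higher in HCT116 and 13 to 26 lower in LS174T; LS513 3D replicate 2 and LS174T 2D replicate 1 gave the lowest counts lower.

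The labels do not say whether equal replicate numbers pair the libraries. The deviations of same-numbered 2D and 3D libraries correlated between -0.209 and 0.216 over 11 pairs, which cannot settle whether cultures were paired. With the replicate block, 2 members were higher and 24 lower in HT29, 1 was higher in LS513, 6 in HCT116 and 4 in LS174T, and of the lists 1 gene was higher in HT29 and 1 in HCT116. The cause of these changes was not tested. Depth limits what can be seen of the members with fewer than 10 counts in a library.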
